A study of Bos taurus with 24 samples.

Results

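Transcripts of 9 genes of cytokine signalling were followed in bovine dermal fibroblasts before and after lipopolysaccharide (LPS): the signal transducers and activators of transcription STAT2, STAT3, STAT5A, STAT5B and STAT6, the suppressors of cytokine signalling SOCS1, SOCS2 and SOCS3, and their relative CISH. The 9 members were chosen by gene symbol from 59846 rows of the expression tables, 27550 of which carry a symbol, and each symbol stood on 1 row. Dermal fibroblasts build the collagen matrix under the epidermis, and these had been cultured from shoulder biopsies of 4 Holstein (dairy) and 4 Angus (beef) heifers of the same age, and were challenged after the third passage with LPS at 100 ng/ml. RNA was taken before the challenge (0 h) and 2 h and 8 h after it, which gave 24 samples in 6 groups of 4, each sample being 1 animal at 1 hour from pooled duplicate wells. All groups were untreated apart from LPS, and a culture without LPS was measured at 0 h only, so that time in culture and LPS cannot be told apart.

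Cytokines and interferons bind receptors that carry Janus kinases (JAKs), which phosphorylate STAT proteins, and paired STATs then enter the nucleus and bind DNA. STAT2 acts with IRF9 in the complex that switches on interferon-stimulated genes, STAT3 carries the signal of the IL6 family, STAT5A and STAT5B that of growth hormone and prolactin, and STAT6 that of IL4 and IL13. The SOCS proteins and CISH are commonly induced by STATs and close a negative feedback loop, either by blocking the kinase or receptor or by marking it for degradation. LPS itself signals through TLR4, and fibroblasts answer it with cytokines that can act back on the same cells.

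Total counts were 51014538 to 104406293 per sample, so that a level of 1 CPM (counts scaled to the library total) stood for 51.0 to 104.4 counts and a floor of 3 counts for 0.029 to 0.059 CPM. Levels below are CPM after TMM scaling, edgeR's trimmed mean of M-values, given per animal or as mean ± SD with n = 4. Collagen and other fibroblast genes were high in every sample (COL1A2 at 15010 to 36850 CPM). Of the leukocyte markers, the T cell gene CD3E reached at most 0.1045 CPM and the B cell gene CD79A at most 0.0134 CPM. CD68, the highest of that list, was at 1.35 to 4.34 CPM. Of 7 keratinocyte markers, KRT1 was at 0 in all 24 samples, and their summed level was 12.3 to 14.7 CPM in Holstein animal 1 against 0.496 to 1.6 CPM in the other animals. Of the markers of smooth muscle or pericytes, CNN1 was at 190.1 to 420.3 CPM and MYH11 at 15.8 to 44.1 CPM, and the summed level of that list was 208 to 322 CPM at 0 h, 267 to 445 CPM at 2 h and 229 to 341 CPM at 8 h. The leukocyte list summed to 2.12 to 5.28 CPM at 0 h, 4.68 to 5.73 CPM at 2 h and 3.37 to 5.81 CPM at 8 h. Over all samples the endothelial list summed to 2.03 to 5.22 CPM and the melanocyte list to 1.5 to 3.5 CPM. The part of such transcripts in the results below was not tested. In 4 samples (Angus 4, Holstein 2 and Holstein 4 at 0 h, Angus 3 at 2 h) each count of COL1A1 stood for 66.2 to 67.1 covered bases, where every other sample had 111.8 to 119.0. For the 9 members the covered bases per count differed between samples by no more than 1.14 times, those 4 included.

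Each gene row covers exons and introns alike, on the bovine build UMD v3.1, and exons or untranslated regions are not marked. STAT5B, STAT5A and STAT3 lie in a row on chromosome 19. STAT5B runs from 42960224 to 42996671 on the minus strand, STAT5A from 43033613 to 43054206 on the plus strand and STAT3 from 43056659 to 43132624 on the minus strand. STAT5A and STAT3 are 2452 bases apart. SOCS3 lies farther along the same chromosome (54458856 to 54459555, plus strand), and its row is only 700 bases long. Chromosome 5 holds SOCS2 (23523981 to 23528860), STAT6 (56661342 to 56671162) and STAT2 (57321722 to 57333646), all on the plus strand. The end of the STAT2 row overlaps IL23A on the opposite strand (57333186 to 57335220), and counts in the overlap cannot be assigned to either gene. The IL23A row had group means of only 2.65 to 3.83 CPM. CISH is on chromosome 22 (50320205 to 50325618, plus strand) and SOCS1 on chromosome 25 (9974848 to 9975970, minus strand). STAT5A and STAT5B are close copies of each other, so the division of reads between them is less certain than for the other members.

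At 2 h, LPS was followed by more STAT5A transcript, and by more CISH transcript in the Holstein cultures. STAT5A was at 23.8, 20.8, 20.1 and 20.9 CPM in Holstein animals 1 to 4 at 0 h and at 29.7, 44.5, 28.0 and 42.2 CPM at 2 h. In the Angus animals STAT5A went from 18.8, 18.2, 22.2 and 18.0 CPM to 23.3, 21.8, 38.8 and 19.8 CPM. All 8 animals were therefore higher at 2 h than at 0 h, by 1.1 to 2.14 times. With both breeds together (8 samples against 8, edgeR likelihood-ratio test on all rows kept) the log2 fold change was 0.61 ± 0.17 (SE) with a false discovery rate (FDR) of 0.00231. In bulk RNA, more cells of a kind and more RNA per cell cannot be told apart, here and below.

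This was 1 of the 6 members that could be tested in the combined comparison, where 22.0% of all rows passed the FDR limit of 0.05. None of these 6 was past the threshold of the study, which adds a fold change of at least 2 and an average CPM above 1 and which 2.82% of all rows met. CISH was under the filter here and is not among the 6. The study itself lists CISH past that threshold, as higher at 2 h with the breeds combined. Of the tested members, STAT3, STAT5A and STAT6 were higher at 2 h in all 8 animals, a pattern of one direction that 36.1% of all rows showed. The animal number links the hours of a culture, and with the animal as a block 4 members passed, beside 47.5% of all rows. With that block STAT3 (log2 fold change 0.17 ± 0.042, FDR 0.000131) and STAT6 (0.13 ± 0.045, FDR 0.0125) also rose and STAT2 fell by 0.18 ± 0.050 on the log2 scale (FDR 0.000758). Leaving out the 4 samples with low COL1A1 coverage per count ended the combined call of STAT5A (0.52, FDR 0.0718), while 17 of 18 alternatives kept it (FDR 6.15e-06 to 0.0718).

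CISH, a SOCS relative known as a brake on STAT5 signalling, had the largest log2 fold change among the members tested in Holstein at 2 h. The 4 Holstein cultures held 0.793, 0.747, 0.861 and 0.771 CPM of CISH at 0 h and 1.67, 3.25, 2.77 and 2.85 CPM at 2 h, with no overlap between the hours. The log2 fold change was 1.72 ± 0.25 with an FDR of 5.48e-10, and all 14 alternatives kept it (FDR 2.32e-15 to 0.000746). CISH entered that test only through its 2 h samples, since all Holstein values at 0 h were under 1 CPM, but without any filter the FDR was still 6.41e-09. Angus cultures showed 0.528, 0.996, 0.734 and 0.722 CPM at 0 h and 0.413, 0.902, 1.119 and 1.04 CPM at 2 h, higher in 2 of 4 animals. In Angus the gene was under the filter, and without it the log2 fold change was 0.23 (FDR 0.851).

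Within Holstein, STAT5A (0.75 ± 0.17, FDR 0.000141) and CISH were the 2 members of 7 tested that passed at 2 h, against 17.2% of all rows. CISH alone was past the threshold of the study, beside 3.14% of all rows. Since CISH entered this test only through its 2 h samples, its place in these counts is no support for a rise among the members. Without any filter the rise of CISH also passed with both breeds together (1.18, FDR 0.00709). Of the tested members, STAT3, STAT5A, STAT6 and CISH were higher at 2 h in all 4 Holstein animals, as was SOCS1, which was under the filter, and 52.0% of all rows moved one way in these 4. In Angus none of 7 tested members passed with edgeR's likelihood-ratio test, against 13.8% of all rows, and none had an unadjusted p under 0.05. STAT2, STAT3, STAT5A and STAT6 moved one way in all 4 animals beside 53.0% of all rows. With the animal as a block, 4 passed in Angus beside 35.8% of all rows. These were STAT3 (0.19 ± 0.069, FDR 0.0175) and STAT5A (0.38 ± 0.12, FDR 0.00535), which rose, and STAT2, which fell by 0.23 ± 0.071 (FDR 0.00444), and SOCS2, which fell by 0.43 ± 0.17 (FDR 0.0394). The quasi-likelihood test with the same block passed 3 of them, without SOCS2. In Holstein the block added STAT3 (0.15 ± 0.056, FDR 0.021), beside 35.8% of all rows.

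**Figure D1:**
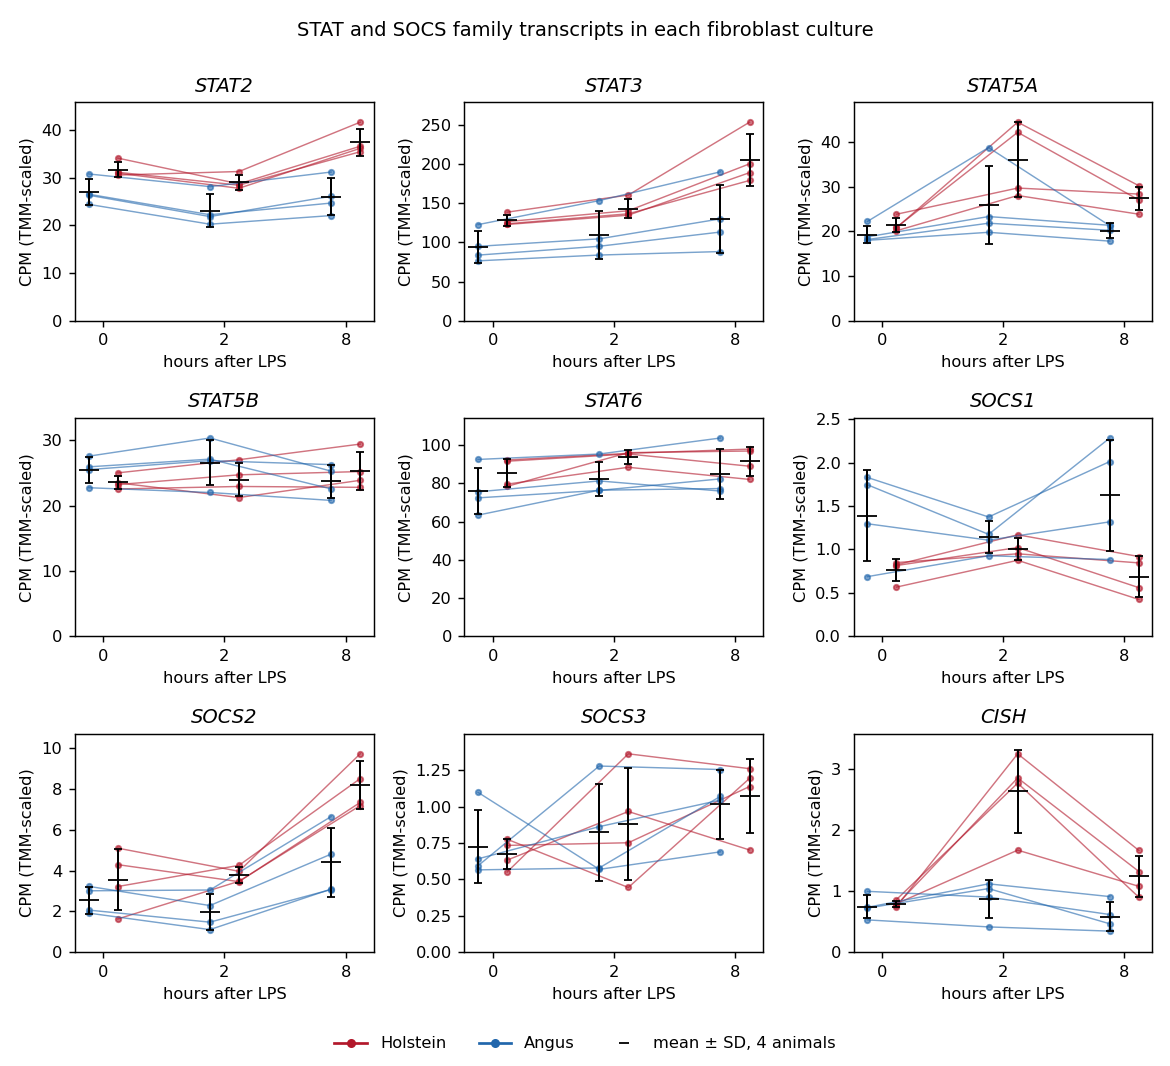
Levels of the 9 members in each culture: the x axis gives the hours after LPS at even spacing, the y axis TMM-scaled CPM from 0, each line is 1 animal (red Holstein, blue Angus), and black bars are the mean ± SD of 4 animals. STAT3 and SOCS2 reach their highest values at 8 h, while STAT5A and the Holstein CISH values peak at 2 h.

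With both breeds together, the called members at 8 h were STAT3 and SOCS2, both higher than at 0 h. STAT3 was at 123, 139, 124 and 127 CPM in Holstein animals 1 to 4 at 0 h, at 135, 161, 137 and 141 CPM at 2 h and at 189.5, 254, 179.5 and 201 CPM at 8 h. In the Angus animals the values were 83.8, 95.1, 123 and 76.5 CPM at 0 h, 95.2, 105, 154 and 83.9 CPM at 2 h and 113, 130.3, 191 and 88.4 CPM at 8 h. All 8 animals were higher at 2 h than at 0 h and higher again at 8 h, and the Holstein values at 8 h lay above every Holstein value of the earlier hours. The log2 fold change at 8 h was 0.59 ± 0.20 with both breeds together (FDR 0.027). It was 0.69 ± 0.12 in Holstein (FDR 1.27e-06, kept by all 14 alternatives) and 0.46 ± 0.25 in Angus (FDR 0.428). With the animal as a block the Angus rise passed too (0.43 ± 0.087, FDR 1.91e-05).

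SOCS2, an inhibitor known for restraining growth hormone signalling, was at 5.11, 3.22, 4.30 and 1.63 CPM in the Holstein animals at 0 h and at 9.74, 8.52, 7.35 and 7.19 CPM at 8 h. In Angus it went from 2.07, 3.23, 3.01 and 1.92 CPM to 3.07, 4.81, 6.65 and 3.095 CPM. Each of the 8 animals was higher at 8 h, by 1.49 to 4.41 times, and within Holstein the 2 hours did not overlap. The combined log2 fold change was 1.04 ± 0.28 (FDR 0.004), and SOCS2 was the only member past the threshold of the study at 8 h, beside 1.42% of all rows. Within Holstein it was 1.20 ± 0.30 (FDR 0.00135), and within Angus 0.78 ± 0.32 (FDR 0.178), which passed with the animal as a block (0.75 ± 0.15, FDR 2.22e-05). Holstein animal 4 had both the lowest level at 0 h and the largest rise.

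STAT3 and SOCS2 were the 2 of 6 tested members that passed with both breeds together at 8 h, against 12.8% of all rows. Both moved one way in all 8 animals, as 27.8% of all rows did. With the animal as a block STAT5A (0.20 ± 0.069, FDR 0.00998) and STAT6 (0.12 ± 0.053, FDR 0.0463) passed as well, which made 4 beside 40.7% of all rows. Without the 4 samples with low COL1A1 coverage per count neither was called (STAT3 0.62, FDR 0.0686, and SOCS2 0.835, FDR 0.0753). The STAT3 call was also lost in the quasi-likelihood test (FDR 0.0525) and without Angus 3, Holstein 1, Holstein 2, Holstein 3 or Holstein 4 (FDR 0.0623 to 0.0805).

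Holstein cultures had 3 of 6 tested members past the FDR limit at 8 h, against 14.7% of all rows: STAT3, SOCS2 and STAT5A (0.36 ± 0.11, FDR 0.00944). Of the tested members, STAT2, STAT3, STAT5A, STAT5B and SOCS2 were higher in all 4 Holstein animals, as were SOCS3 and CISH, which were under the filter, and 53.7% of all rows moved one way. The STAT5A call was lost without Holstein 2 (FDR 0.186), without Holstein 4 (FDR 0.113) and without the samples with low COL1A1 coverage per count (FDR 0.206), and that of SOCS2 without Holstein 2 (FDR 0.0523). Without Holstein 3, SOCS3 (0.78, FDR 0.0247) and CISH (0.81, FDR 0.0358) entered the test and were called, but both reached the filter only through their 8 h samples, so that these calls are no support for a rise. STAT2 was at 31.2, 34.1, 31.0 and 30.6 CPM at 0 h and at 35.5, 36.6, 36.2 and 41.7 CPM at 8 h in Holstein, with no overlap. Its log2 fold change of 0.24 ± 0.095 missed the limit (FDR 0.0644) and passed with the animal as a block (0.24 ± 0.074, FDR 0.00505, beside 35.2% of all rows) and in 5 of 14 alternatives (FDR 0.00505 to 0.456).

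In Angus none of the 8 tested members passed at 8 h with edgeR's likelihood-ratio test, where 3.90% of all rows did, and the quasi-likelihood and DESeq2 tests passed none either. SOCS2 had the only unadjusted p under 0.05, of 0.0138. STAT3, STAT6, SOCS1 and SOCS2 were higher in all 4 Angus animals, beside 41.4% of all rows that moved one way. With the animal as a block 2 members, STAT3 and SOCS2, passed beside 20.7% of all rows. Without Angus 4, SOCS3 was called in Angus (0.905, FDR 0.0171), but it then reached the filter only through its 8 h samples. The comparisons at 2 h and 8 h share their 0 h samples.

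From 2 h to 8 h the members took different courses. SOCS2 rose by 1.13 ± 0.30 on the log2 scale (FDR 0.00165), in all 8 animals by 2 to 2.8 times and under all 18 alternatives (FDR 7.68e-42 to 0.0101). It was the 1 called member of 8 tested, against 23.8% of all rows, and it was past the threshold of the study, as 2.76% of all rows were. CISH was lower at 8 h than at 2 h in all 8 animals, at 1.08, 1.67, 0.898 and 1.32 CPM in the Holstein animals and at 0.344, 0.616, 0.910 and 0.464 CPM in the Angus animals. The log2 fold change of CISH was -0.93 ± 0.40 (FDR 0.0735). Together with STAT2, STAT3 and STAT5A these made 5 members that moved one way in every animal, beside 34.8% of all rows. With the animal as a block all 5 passed, beside 48.4% of all rows. STAT2 (0.27 ± 0.052, FDR 7.38e-07) and STAT3 (0.38 ± 0.066, FDR 4.78e-08) rose, STAT5A fell by 0.34 ± 0.095 (FDR 0.0011) and CISH fell by 0.85 ± 0.16 (FDR 4.89e-07). CISH also passed without Angus 1 (FDR 0.0311), and STAT3 without Angus 4 (FDR 0.0378).

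**Figure D2:**
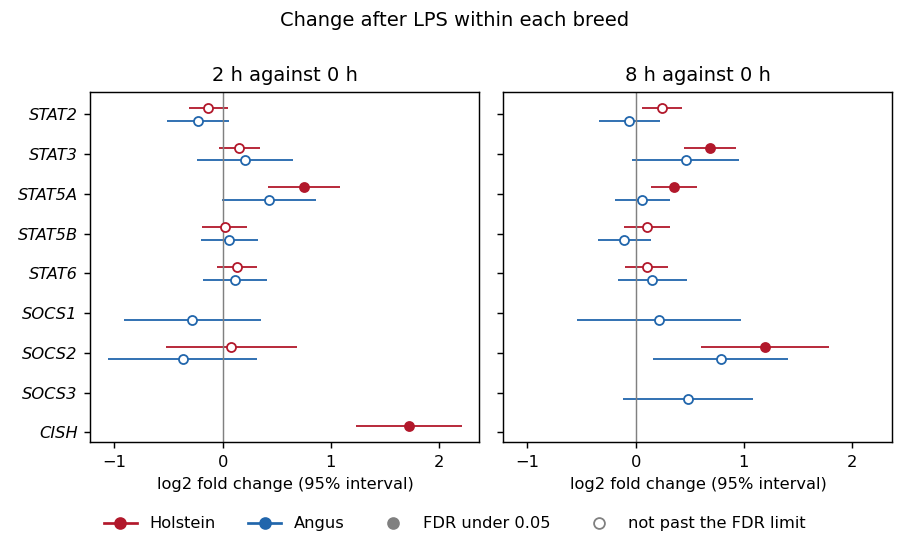
Change of each member after LPS within Holstein (red) and Angus (blue): points are log2 fold changes from the fit without a block, bars their 95% intervals, filled points passed the FDR limit and genes under the filter of 1 CPM have no point. The filled points are STAT5A and CISH at 2 h and STAT3, STAT5A and SOCS2 at 8 h, all in Holstein and all above 0.

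Whether the members differed between the breeds was asked at each hour on 4 samples against 4. Before LPS only STAT3 of 6 tested members passed, against 13.8% of all rows, with a log2 difference of 0.44 ± 0.16 (FDR 0.0386). Its Holstein values of 123.1 to 138.9 CPM lay just above the highest Angus value of 122.9 CPM, that of Angus 3, and 9.35% of all rows were higher in Holstein without overlap. The call held under 4 of 16 alternatives (FDR 1.79e-05 to 0.658). It was lost in 7 of 8 fits that left out 1 animal, in the quasi-likelihood test (FDR 0.0768) and without the samples with low COL1A1 coverage per count (FDR 0.658), 3 of which are 0 h samples. Without Angus 3, STAT2 passed as well (0.30, FDR 0.029).

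At 2 h, CISH lay between 1.67 and 3.25 CPM in the Holstein animals, above the highest Angus value of 1.119 CPM, so that the breeds did not overlap. The log2 difference was 1.58 ± 0.33 (FDR 9.78e-05), past the threshold of the study, which 4.44% of all rows met, and kept by all 16 alternatives (FDR 5.1e-06 to 0.0172). CISH met the filter of this test through its Holstein samples, the group where it was high. The fit without a filter was among the alternatives that kept the call. SOCS2 stood at 3.97, 4.26, 3.46 and 3.48 CPM in Holstein against 1.47, 2.29, 3.05 and 1.11 CPM in Angus, again without overlap (0.93 ± 0.31, FDR 0.0204). That call was lost in the quasi-likelihood test (FDR 0.0543) and without Angus 1, Angus 4, Holstein 1 or Holstein 2 (FDR 0.0572 to 0.0899). The 2 made up the called members of 7 tested, against 20.1% of all rows, and both were higher in Holstein without overlap, as 12.9% of all rows were. Leaving out Angus 3 brought the called members to 6, with STAT2 (0.44, FDR 0.000552), STAT3 (0.60, FDR 2.78e-05), STAT5A (0.74, FDR 0.00129) and STAT6 (0.27, FDR 0.0282) added, all higher in Holstein. The Angus 3 library at 2 h had low COL1A1 coverage per count and a TMM scaling factor of 0.832. It held 20.53% of its counts in rows without a symbol, against at most 15.45% in the other samples. The part of these traits in the added calls was not tested.

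At 8 h, 4 of 7 tested members were higher in Holstein, against 16.5% of all rows past the limit. STAT2 was at 35.5, 36.6, 36.2 and 41.7 CPM in the Holstein animals, all above the Angus values of 24.7, 26.1, 31.2 and 22.1 CPM, a log2 difference of 0.53 ± 0.13 (FDR 0.00178). STAT5A was at 28.4, 30.2, 23.8 and 27.0 CPM in the Holstein animals and lower in each Angus animal, at 21.4, 20.2, 21.3 and 17.8 CPM (0.44 ± 0.12, FDR 0.00355). Both differences passed in all 15 alternatives, with FDR values up to 0.0302 for STAT2 and 0.03 for STAT5A. SOCS2 differed by 0.90 ± 0.27 (FDR 0.0118), which the quasi-likelihood test just missed (FDR 0.0502), as did the fits without Angus 1, Angus 4 or Holstein 1 (FDR 0.0516 to 0.0633). STAT3 differed by 0.66 ± 0.23 (FDR 0.0329), passed in 7 of 15 alternatives (FDR 1.71e-05 to 0.141) and overlapped between the breeds through Angus 3. STAT2, STAT5A and SOCS2 were higher in Holstein without overlap, which held for 11.2% of all rows. Holstein 1, the animal with keratinocyte transcripts, had the lowest Holstein value of STAT2 and the highest of SOCS2 at 8 h. Without Holstein 1 STAT2 and STAT5A still passed, while STAT3 (FDR 0.0503) and SOCS2 (FDR 0.0516) did not. The fibroblast list summed to 61700 to 79100 CPM in the Holstein animals at 8 h, above the Angus range of 37900 to 59000 CPM, and its part in these differences was not tested.

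SOCS1, which inhibits the Janus kinases directly, differed in the other direction at 8 h. It had 1.62 ± 0.639 CPM in Angus at 8 h and 0.687 ± 0.234 CPM in Holstein, and 26 to 179 counts lay behind these values. Angus animals 1 to 4 held 2.28, 0.884, 1.32 and 2.01 CPM and Holstein animals 0.919, 0.845, 0.425 and 0.560 CPM, so that Angus 2 overlapped with Holstein. The gene was under the filter of 1 CPM in this comparison. Without the filter the log2 difference was -1.24 (FDR 0.0193) and with a limit of 10 counts -1.25 (FDR 0.0123), and its FDR was 0.0107 to 0.0193 over the 3 alternatives that tested it. CISH, also under the filter at 8 h, was then higher in Holstein (1.07, FDR 0.038, and 1.06, FDR 0.0247). Before LPS the mean of SOCS1 was already lower in Holstein, at 0.764 ± 0.132 CPM against 1.39 ± 0.524 CPM in Angus. Without the filter that difference was -0.88 (FDR 0.111), which did not pass.

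**Figure D3:**
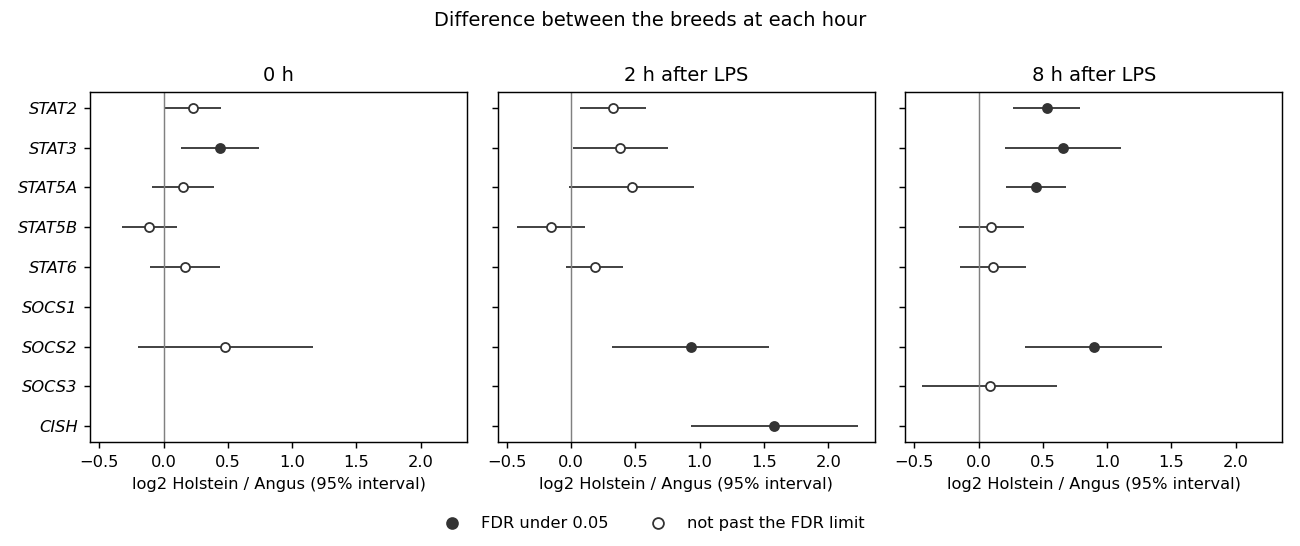
Difference between the breeds at each hour: points are log2 ratios of Holstein to Angus, bars their 95% intervals, filled points passed the FDR limit and genes under the filter have no point. The filled points are STAT3 at 0 h, SOCS2 and CISH at 2 h and STAT2, STAT3, STAT5A and SOCS2 at 8 h, all to the right of 0. These numbers depend on single animals, since without Angus 3 there were 2 called members at 0 h and 6 at 2 h.

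A call in Holstein and none in Angus does not show that the responses differ, so the difference in response was tested as an interaction of breed and hour. None of the 6 tested members passed at 2 h or at 8 h (edgeR likelihood-ratio test, FDR 1 for each, no unadjusted p under 0.05), none did with the animal as a block or in any other alternative, and 0.437% and 0.137% of all rows passed. The lowest FDR of a member with the block was 0.0749, for STAT2 at 8 h, with a log2 difference in response of 0.30 ± 0.097, and the block passed 4.28% of all rows at 2 h and 2.59% at 8 h. By animal, STAT2 changed between 0 h and 8 h by 1.07 to 1.36 times in Holstein and by 0.904 to 1.01 times in Angus. STAT5A changed by 1.18 to 1.45 times in Holstein and by 0.957 to 1.14 times in Angus. The changes of these 2 members did not overlap between the breeds, which held for 7.44% of all rows at 8 h. At 2 h no tested member was without overlap, against 9.94% of all rows. For CISH, which the filter kept out, the interaction at 2 h was 1.49 with FDR 0.162 without a filter and 0.117 with a limit of 10 counts (0.0625 to 0.238 over 4 alternatives), while its changes were 2.11 to 4.35 times in Holstein and 0.782 to 1.52 times in Angus.

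STAT5B and STAT6 passed in none of the 12 comparisons as tested without a block. STAT5B, the close copy of STAT5A, had group means of 23.6 to 26.6 CPM, and its 2 h change with both breeds together had a 95% interval of -0.13 to 0.21 on the log2 scale. STAT6 had group means of 76.0 to 93.9 CPM, lowest in Angus at 0 h and highest in Holstein at 2 h. Its differences between the breeds were 0.11 to 0.18 (log2), each within its interval of 0. For both genes every neighbouring pair of groups overlapped when the 6 groups were put in order of their means.

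The same ordering set 1 group apart from the next for several members. Holstein at 8 h came first for STAT2, STAT3 and SOCS2, and its animals did not overlap with those of the next group. For STAT3 they did overlap with the group after that, Angus at 8 h (179.5 to 254.2 against 88.4 to 190.6 CPM). CISH was highest in Holstein at 2 h, from 1.671 CPM, and the next group, Holstein at 8 h, reached 1.666 CPM. That gap is too small to set these groups apart. STAT5A was highest in Holstein at 2 h (36.1 ± 8.44 CPM), but each neighbouring pair of its groups overlapped. SOCS1 was highest in Angus at 8 h, and the only gap in its order lay between Holstein at 2 h (1.00 ± 0.125 CPM) and Holstein at 0 h (0.764 ± 0.132 CPM). The nearest values of these groups, 0.875 and 0.849 CPM, were also close.

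SOCS3, a main inhibitor of IL6 signalling, had a low level on its row of 700 bases in every group. Its Holstein means were 0.673 ± 0.101 CPM at 0 h, 0.881 ± 0.386 CPM at 2 h and 1.07 ± 0.253 CPM at 8 h, and those of Angus 0.725 ± 0.251, 0.822 ± 0.333 and 1.01 ± 0.237 CPM. All neighbouring groups overlapped. Its 25 to 126 counts reached the filter in 3 of 12 comparisons, and none was called. With a limit of 10 counts the combined rise at 8 h passed (0.57, FDR 0.0362), and without a filter it did not (FDR 0.0736). Without Holstein 3 it was called (0.61, FDR 0.02), where 6 of the 7 samples over 1 CPM were 8 h samples. The interval that follows the SOCS3 row (54459556 to 54537797), which carries no symbol, rose by 0.66 ± 0.18 at 8 h (log2, FDR 0.00492). In each group it held more CPM than the row itself, from 1.46 ± 0.297 CPM (Holstein at 0 h) to 2.51 ± 0.659 CPM (Holstein at 8 h). Whether its reads belong to SOCS3 was not tested, so the low row need not mean little SOCS3 transcript.

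Intervals beside other members moved too. The interval between STAT5A and STAT3 rose at 2 h by 0.61 ± 0.18 (log2, FDR 0.00468) with both breeds together, where STAT5A rose by 0.61. The interval next to STAT3 on its 5′ side (43132625 to 43148012) rose by 1.465 ± 0.14 at 2 h (FDR 4.98e-23) and then fell by 1.04 ± 0.14 to 8 h (FDR 2.45e-12). Holstein animals had 1.54 ± 0.114 CPM there at 0 h and 3.90 ± 0.515 CPM at 2 h, Angus animals 1.18 ± 0.208 and 3.57 ± 0.488 CPM. STAT3 itself was higher at 8 h than at 2 h in all 8 animals. The interval after CISH (50325619 to 50348515) rose by 0.59 ± 0.15 at 2 h (FDR 0.000594) and fell by 0.65 ± 0.15 from 2 h to 8 h (FDR 0.000212). On the 3′ side of SOCS1, the interval 9914804 to 9974847 held 5.36 ± 0.529 CPM in Angus at 0 h and 3.76 ± 0.751 CPM at 8 h. In Holstein it held 5.095 ± 0.459 CPM at 0 h and 3.87 ± 0.662 CPM at 8 h, so that the breeds overlapped there at 8 h. Which transcripts the reads of these intervals come from was not tested.

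The genes whose pattern over the 24 samples was most like each member were taken among 13074 rows with a symbol and a mean of 1 CPM or more, by Pearson r of log2(CPM + 1). The limit of 1 CPM held for the members too and left out SOCS3, which had a mean of 0.865 CPM. For STAT3 they were ANGPTL4 (r = 0.967), CXCL16 (r = 0.955) and PRR5L (r = 0.942). For STAT2 they were TRANK1 (r = 0.958), PARP11 (r = 0.927) and GRK5 (r = 0.924). STAT5A was most like LOC100337435 (r = 0.955), TNFAIP2 (r = 0.951) and CX3CL1 (r = 0.916), and STAT6 most like KLK10, EPAS1 and KLF9 (r = 0.868, 0.847 and 0.839). SOCS2 was closest to DRAM1 (r = 0.916), CHIC2 and C7H19orf66, CISH to ITPKC (r = 0.872), KCNK6 and IP6K2, SOCS1 to IRX1 (r = 0.858), COMTD1 and CYP27C1, and STAT5B to KIAA1671 (r = 0.765), PANX1 and PGM5. Among the members themselves the highest r values were 0.839 for STAT3 with SOCS2, 0.825 for STAT2 with STAT3 and 0.794 for STAT5A with CISH. STAT5A and STAT5B had an r of 0.211. The points share animals, hours and library scaling, so these values are descriptions.

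The remaining genes of the pathway were grouped in lists by role. Of the ligands, 4 reached the filter at 0 h, and 2 of these, LIF and CLCF1, were higher at 2 h in the combined comparison, beside 22.0% of all rows called. IL6 and IL11 were under 1 CPM in every sample at 0 h and entered the test through their 2 h samples. IL6 rose by 6.46 ± 0.58 (FDR 1.42e-16), LIF by 4.64 ± 0.56 (FDR 5.05e-11), IL11 by 2.575 ± 0.28 (FDR 5.24e-17) and CLCF1, another cytokine of the IL6 family, by 1.73 ± 0.15 (FDR 6.33e-27). These 4 act through receptors that activate STAT3. At 8 h IL6 was still higher (6.97 ± 0.48, FDR 1.28e-26), as was CLCF1 (0.59 ± 0.16, FDR 0.00365). From 2 h to 8 h LIF fell by 3.32 ± 0.64 (FDR 2.9e-05) and was higher in Holstein than in Angus at 2 h (2.02 ± 0.58, FDR 0.00825) and at 8 h (2.42 ± 0.56, FDR 0.00118).

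Of the receptors, 6 of 16 tested were higher and 1, IFNGR1, lower at 2 h (median 0.0942), beside 22.0% of all rows called. The interferon receptor IFNAR2 (1.18 ± 0.21, FDR 3.92e-07), the LIF receptor LIFR (1.485 ± 0.26, FDR 7.52e-07) and IL15RA (1.90 ± 0.15, FDR 1.29e-32) changed at least 2-fold. None of the 3 tested Janus kinases passed at 2 h (FDR 0.073 to 0.967), and JAK2, named for this count, rose by 0.30 ± 0.077 at 8 h (FDR 0.0015). Of SOCS4 to SOCS7, the 4 other members of the SOCS family, SOCS5 alone passed at 2 h (0.63 ± 0.092, FDR 2.77e-10) and none at 8 h (FDR 0.859 to 0.996). IRF9, the DNA-binding subunit that STAT2 acts with, averaged 21.1 ± 6.76 CPM in the Holstein cultures at 8 h against 8.52 ± 4.95 CPM in Angus (log2 difference 1.31 ± 0.39, FDR 0.0119). Before LPS IRF9 was already higher in Holstein (0.73 ± 0.22, FDR 0.013), as it was at 2 h (0.64 ± 0.18, FDR 0.00364). Its interaction of breed and hour at 8 h did not pass (0.57 ± 0.48). STAT4, which carries the signal of IL12, was also higher in Holstein at 8 h (0.52 ± 0.17, FDR 0.0183), in the comparison where STAT2 was.

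Target genes known from the literature of each STAT were grouped in the same way, and their counts stand beside 22.0% of all rows called at 2 h and 12.8% at 8 h. Of 15 tested STAT3 targets, 7 were higher and 1 lower at 2 h (median 0.342), and the kinase gene PIM1 (2.27 ± 0.30, FDR 2.79e-11), JUNB (1.97 ± 0.28, FDR 8.94e-10), BCL3 (1.25 ± 0.27, FDR 8.99e-05) and CEBPD (1.04 ± 0.26, FDR 0.000608) rose at least 2-fold. FOS fell by 1.13 ± 0.21 (FDR 2.89e-06). At 8 h 7 were higher and 2 lower (median 0.396, beside -0.00724 over all rows), with HIF1A at 1.01 ± 0.19 (FDR 5.61e-06). Of the STAT5 targets, 3 of 7 tested were higher at 2 h (median 0.391), led by ID1 (1.51 ± 0.35, FDR 0.000292), and 2 of 7 were lower at 8 h (median -0.189). Between the breeds at 0 h, 2 of the 7 were higher in Holstein and 1, ID1, was lower (-1.78 ± 0.28, FDR 9.38e-08), beside 13.8% of all rows called. The interaction at 2 h passed for 1 of the 7, ID1 (1.43 ± 0.38, FDR 0.0425), beside 0.437% of all rows. Of 3 tested STAT6 targets 1 was higher at 2 h and none of 3 at 8 h. Other inhibitors of the pathway counted 2 of 10 higher at 2 h, near the share of all rows, and 2 higher and 1 lower at 8 h, and coactivators and adaptors 1 higher and 3 lower of 7 at 2 h and none at 8 h.

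Of the interferon-stimulated genes, which STAT2 helps to switch on, 10 reached the filter at 0 h. Of these 10, 2 were higher and 3 lower at 2 h (median log2 fold change 0.0465), beside 22.0% of all rows called, and 8 were higher at 8 h (median 1.02), beside 12.8%. Among them BST2 rose by 4.41 ± 0.47 (FDR 1.37e-13) and MX1 by 3.16 ± 0.51 (FDR 8.89e-07) at 8 h, while IRF1 was already higher at 2 h (3.63 ± 0.37, FDR 7.57e-17). IFIH1 also rose at 8 h (4.575 ± 0.45, FDR 3.68e-16), but it was under 1 CPM in every sample at 0 h and entered through its 8 h samples. Within Holstein at 8 h all 10 were higher (median 1.42), beside 14.7% of all rows called, and within Angus 2 of 10 (median 0.475), beside 3.90%. The interaction passed for 2 of 10 at 8 h, beside 0.137% of all rows: IFIT1 (1.21 ± 0.25, FDR 0.00276) and IRF1 (1.32 ± 0.30, FDR 0.0163). Between the breeds 7 of the 10 were higher in Holstein at 8 h (median 1.03), beside 16.5% of all rows called, where STAT2 was higher by 0.53, and at 0 h 3 of the 10 were lower in Holstein, beside 13.8%. USP18, an inhibitor of interferon receptor signalling that is itself a target, averaged 12.4 ± 4.96 CPM in the Holstein cultures against 3.81 ± 1.94 CPM (1.704 ± 0.43, FDR 0.00221). MX1 shares sequence with MX2, and its level is less certain for that reason.

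**Figure D4:**
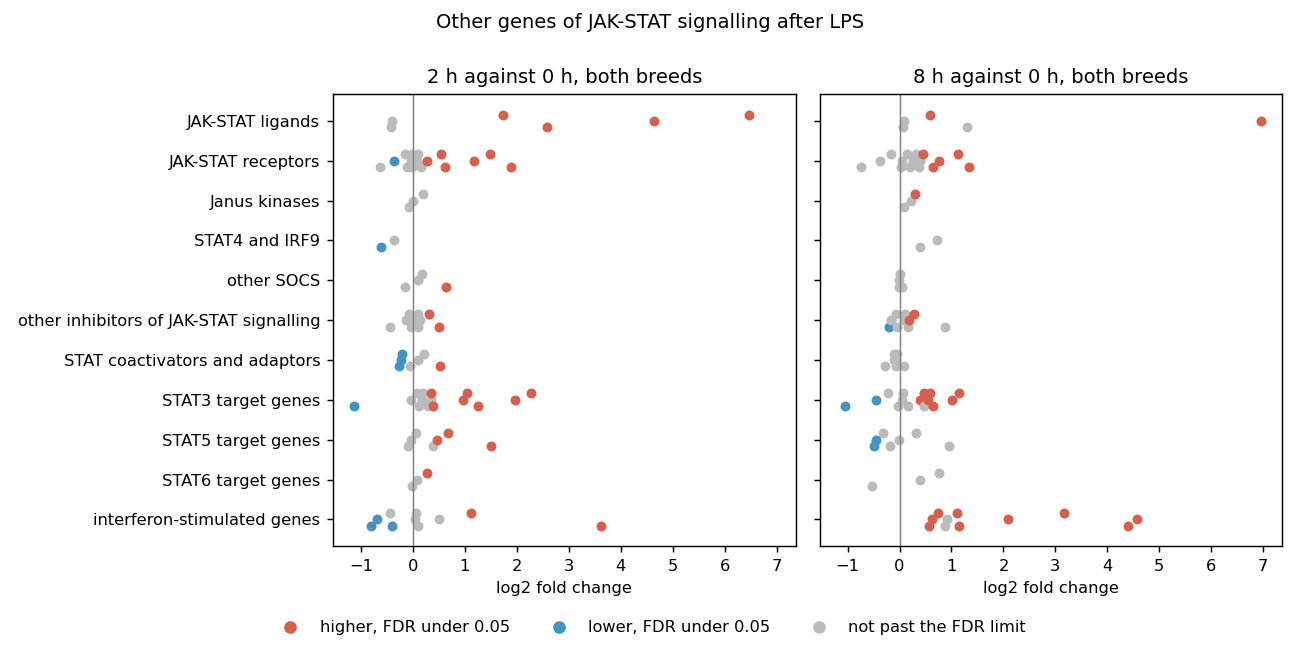
Log2 fold changes of the other pathway genes after LPS with both breeds together, 1 row of points per list: red points were higher and blue points lower past the FDR limit, grey points did not pass it. The ligands lie farthest to the right at 2 h, and most interferon-stimulated genes lie above 0 at 8 h. The points include IL6 at both hours, IL11 at 2 h and IFIH1 at 8 h. These were under 1 CPM in every sample at 0 h and entered through their later samples.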

How the data were processed

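Poly-A RNA of 24 fibroblast cultures (2 breeds, 3 hours, 4 animals each) was sequenced on an Illumina HiSeq1000. The authors aligned the reads with NextGENe 2.3.4 to the bovine build UMD v3.1 and deposited raw read counts per row, where a row is a gene span or the interval between genes, beside a coverage signal that was used only to compare the covered bases per count. CASAVA 1.7 is named in the submitters' processing notes. Whether strand was used in counting is not given in the sources used here. Of the reads, 92.88 to 96.54% matched, and rows without a symbol held 12.28 to 20.53% of the counts. These rows name no gene but stayed in library sizes and tests, and the fit on rows with a symbol only was chosen after seeing the data.

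Groups came from the sample titles. Counts were analysed in R 4.3.3 with edgeR 4.0.16. Only the samples of a comparison entered its fit, a likelihood-ratio test, as in the methods of the study, after TMM scaling and a filter of 1 CPM in 50% of its samples, and p-values were adjusted by Benjamini-Hochberg over all rows tested. A row passed at an FDR under 0.05. The threshold of the study adds a fold change of 2 and an average CPM above 1. Intervals and floors (3 counts) cover counting or model error only. The script was tested on simulated data. Alternatives were the quasi-likelihood F test, DESeq2 1.42.0, RLE and no scaling, no filter or a limit of 10 counts, the animal as a block, each animal left out, and the fit without the 4 samples in which COL1A1 had fewer covered bases per count.

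The same number within a breed is the same animal at each hour. Deviations from the group means correlated between 0 h and 2 h of an animal with r of at least 0.545 (mean 0.658) and between different animals with a mean of -0.218. For 0 h and 8 h the lowest was 0.533, the mean 0.619 and that of different animals -0.205. Equal numbers in the 2 breeds are different animals, and the breeds were compared without a block. The 9 members and the lists were chosen with earlier results of these data known. All members were described, and 3 genes most like each member were named, except for SOCS3. Other pathway genes were named when past the threshold of the study or where a count was 5 or fewer, the latter chosen after their values were seen. One gene of the pathway lists is not reported here. No sequences are shown, and the DNA methylation data of the study were not analysed here. List counts of the ligands and interferon-stimulated genes were taken over genes that reached the filter at 0 h, a choice made after seeing the data.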

Additional observations from a re-analysis of the deposited data

Results flagged for a closer look

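Of 54 groups of 4 samples (9 members in 6 groups), 4 held a sample whose gap to the nearest of the others, divided by the range of the group, exceeded Dixon's 95% critical value, and chance flags about 1 in 20 groups. STAT2 in Holstein animal 2 at 0 h was at 34.1 CPM, against 30.6 to 31.2 CPM in the other animals. STAT6 in Holstein animal 3 at 2 h was at 88.4 CPM, against 95.3 to 96 CPM. SOCS1 in Holstein animal 3 at 0 h was at 0.567 CPM, against 0.815 to 0.849 CPM. SOCS3 in Angus animal 4 at 0 h was at 1.1 CPM, against 0.565 to 0.641 CPM, and without Angus 4 the rise of SOCS3 in Angus at 8 h was called (log2 fold change 0.905, FDR 0.0171 by edgeR), though the gene then reached the filter only through its 8 h samples. Holstein 2 and Angus 4 at 0 h are among the 4 samples in which COL1A1 had fewer covered bases per count.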

How the results depend on the processing

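Of 1274 values under the alternatives for members that were tested as reported, 1178 kept their side of the FDR limit, 54 newly passed, 42 no longer passed, and 0 called values changed direction. With the animal as replicate block, the members past the limit rose from 1 to 4 at 2 h with both breeds together, from 2 to 4 at 8 h, from 1 to 5 between 2 h and 8 h, and in Angus from 0 to 4 at 2 h and from 0 to 2 at 8 h. The block with the quasi-likelihood test gave 4, 4, 5, 3 and 2. The quasi-likelihood test alone gave 1 at 8 h with both breeds, and between the breeds 0 at 0 h, 1 at 2 h and 2 at 8 h. No scaling beyond library size gave 3 between 2 h and 8 h and between the breeds 0 at 0 h and 4 at 2 h. That setting put the median log2 value of all rows at 0.138 between 2 h and 8 h, -0.123 at 2 h in Angus, -0.102 between the breeds at 0 h and 0.109 for the interaction at 2 h. No filter, a limit of 10 counts and rows with a symbol only each gave 2 at 2 h with both breeds, and the first 2 gave 0 between the breeds at 0 h. Without the 4 samples with low COL1A1 coverage per count there were 0 at 8 h with both breeds, 1 at 2 h in Angus, and between the breeds 0 at 0 h and 6 at 2 h. Leaving out 1 animal gave 1 to 2 at 8 h with both breeds (1 without Angus 3 or any Holstein animal but Holstein 3), 1 to 2 between 2 h and 8 h (2 without Angus 1 or Angus 4), 1 (without Holstein 2) to 5 (without Holstein 3) at 8 h in Holstein, and 0 to 1 (without Angus 4) at 8 h in Angus, where SOCS3 and, in Holstein, CISH entered only through their 8 h samples. Between the breeds it gave 0 to 2 at 0 h (2 without Angus 3, 0 otherwise), 1 (without Angus 1, Angus 4, Holstein 1 or Holstein 2) to 6 (without Angus 3) at 2 h and 2 (without Angus 1, Angus 4 or Holstein 1) to 4 at 8 h. The cause of these moves was not tested. The interactions stayed at 0 in 18 of 18 alternatives each. The counts of SOCS1, SOCS3 and CISH, between 25 and 212 per sample, limit what can be read from them.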
